A study of Mus musculus with 28 samples.

Results

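The genes of cholesterol synthesis, uptake and sterol sensing were followed in mouse liver as a set of 28 members listed by symbol for their known roles; the rule uses no measured value, though the list was drawn up with earlier results of these data known. Of the 28, 27 were found under their own symbol and Msmo1 under its older symbol Sc4mol, and all 28 passed the filter on low counts that left 12607 of 23393 gene symbols. The animals were 28 mice, 7 in each of 4 groups, all of strain 129svj and 11 to 13 months old, and RNA of the liver was sequenced. The groups were SIRT6 heterozygotes (HZ) given WY-14643 (WY), wild-type mice (WT) given WY, HZ mice given vehicle and WT mice given vehicle. SIRT6 is a nuclear NAD-dependent deacylase, and WY-14643 is a synthetic agonist of the fatty acid receptor PPARα. WY was gavaged at 50 mg/kg in 0.5% carboxymethylcellulose (CMC), every vehicle animal received the same CMC alone, and livers were taken after 12 h. The heterozygotes keep a wild-type Sirt6 allele in all cells, the sources used here give neither the design of the allele nor the sex of the animals, and the RNA came from whole liver.

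Cholesterol is built from acetyl-CoA through mevalonate, farnesyl diphosphate, squalene and lanosterol, and liver is a major site of this synthesis. The pathway is governed by SREBP-2, encoded by Srebf2, a membrane-bound transcription factor that the escort protein Scap carries to the Golgi when sterols are scarce. Insig1 and Insig2 hold Scap in the endoplasmic reticulum when sterols are plentiful. After processing, SREBP-2 binds sterol response elements in the promoters of the synthesis enzymes and of Insig1. Mylip tags lipoprotein receptors for degradation, Npc1 and Npc2 release cholesterol from lysosomes, Stard4 moves it between membranes, and Soat1 and Soat2 esterify it for storage.

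The promoters of 5 members are shown because the results turn on them: Srebf2, called between genotypes, Insig1, Sc5d and Msmo1, which fell under WY in both, and Hmgcs1, an abundant enzyme that edgeR on all 28 libraries did not call and DESeq2 called higher in HZ than WT under WY. Stard4 and Soat2 also fell under WY in both genotypes, but no RefSeq promoter window was found for them. Each sequence holds the 250 bases before the start site in RefSeq on GRCm38.p6, 5′ to 3′ on the gene's own strand, with capitals for matches to the sterol response element TCACNCCAC or, where only these match, to its first 7 letters TCACNCC. Srebf2 lies at chr15:82147019-82147268 on the plus strand, Hmgcs1 at chr13:119690101-119690350 on the plus strand and Msmo1 at chr8:64733579-64733828 on the minus strand. Insig1 lies at chr5:28071162-28071411 on the plus strand and Sc5d at chr9:42264301-42264550 on the minus strand.
Srebf2: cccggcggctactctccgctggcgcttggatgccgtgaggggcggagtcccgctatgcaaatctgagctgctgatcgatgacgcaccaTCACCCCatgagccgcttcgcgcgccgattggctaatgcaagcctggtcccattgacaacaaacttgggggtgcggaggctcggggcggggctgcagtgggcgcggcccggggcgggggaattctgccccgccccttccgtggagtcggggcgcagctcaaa
Hmgcs1: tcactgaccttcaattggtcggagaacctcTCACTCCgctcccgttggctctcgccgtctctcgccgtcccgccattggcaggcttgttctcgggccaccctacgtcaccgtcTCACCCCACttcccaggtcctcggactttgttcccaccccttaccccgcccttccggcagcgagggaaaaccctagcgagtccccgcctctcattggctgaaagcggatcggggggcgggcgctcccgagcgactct
Msmo1: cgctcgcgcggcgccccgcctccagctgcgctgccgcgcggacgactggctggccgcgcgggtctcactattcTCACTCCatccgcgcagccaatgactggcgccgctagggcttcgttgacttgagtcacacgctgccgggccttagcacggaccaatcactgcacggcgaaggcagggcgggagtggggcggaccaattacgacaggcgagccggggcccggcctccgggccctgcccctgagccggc
Insig1: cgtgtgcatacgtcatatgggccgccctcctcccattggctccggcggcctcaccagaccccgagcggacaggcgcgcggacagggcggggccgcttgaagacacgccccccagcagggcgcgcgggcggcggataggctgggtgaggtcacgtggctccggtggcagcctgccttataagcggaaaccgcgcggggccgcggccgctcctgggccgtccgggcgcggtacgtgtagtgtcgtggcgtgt
Sc5d: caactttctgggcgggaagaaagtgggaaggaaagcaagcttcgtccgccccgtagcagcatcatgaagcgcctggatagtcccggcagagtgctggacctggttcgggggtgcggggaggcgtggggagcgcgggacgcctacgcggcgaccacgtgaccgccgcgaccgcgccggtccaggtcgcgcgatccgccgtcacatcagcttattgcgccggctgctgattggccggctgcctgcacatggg
The full 9-letter element was found once, in Hmgcs1 at position -137 from the start site. The 7-letter form stood at -162 in Srebf2, at -220 and -137 in Hmgcs1 and at -177 in Msmo1, and the Insig1 and Sc5d windows held no match. The RefSeq windows counted here also take in the first 50 transcribed bases. They were found for 22 of the 28 members, all but Fdps, Fdft1, Sqle, Stard4, Npc1 and Soat2. On both strands of these windows, the 9-letter element was in 1 of 22 members (4.55%), against 1.44% of all 27025 genes. The 7-letter form, which also counts that match, was in 5 of 22 members (22.7%), Srebf2, Insig2, Hmgcs1, Msmo1 and Acat2, against 17.6% of all genes. The letters CCAAT, read by the factor NF-Y, were in 20 of 22 members (90.9%), against 41.1% of all genes. The GC box GGGCGG, read by Sp1, was in 21 of 22 (95.5%), against 38.2% of all genes. Per window, CCAAT was in 71.4% and the GC box in 85.7% of the members' windows, against 37.4% and 35.7% of all windows. The 27025 genes are all those with such a window, whether or not liver expresses them, while every member passed the filter on low counts. Shares among the 12607 genes tested were not counted, so these differences are not shown to be particular to the pathway. These are matches of letters in a short window, and binding was not measured.

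Libraries held 15795201 to 20020078 counts in genes, and the members described below were backed by 30 to 24765 counts per library. Sirt6 was lower in HZ than WT livers, with a log2 fold change of -1.04 ± 0.16 (SE) under WY (adjusted p = 0.00721) and -0.97 ± 0.17 under vehicle (adjusted p = 0.00696). For WY against vehicle, Sirt6 had 0.47 ± 0.16 in WT (adjusted p = 0.0131) and 0.40 ± 0.18 in HZ livers (adjusted p = 0.0572). The 8 hepatocyte markers were all detected, with summed levels of 48104 to 85155 CPM (counts relative to TMM-scaled library size) in HZ WY, 69617 to 81117 in WT WY, 73080 to 109326 in HZ vehicle and 84925 to 112802 CPM in WT vehicle livers. WY lowered 6 of these 8 markers in HZ and 5 in WT and raised 1 in WT, and their part in the falls of members below was not tested. In whole liver, fewer cells of a type and less RNA per cell cannot be told apart. Neutrophil and monocyte markers summed to 3.76 to 23.2 CPM in HZ WY, 3.35 to 5.87 in WT WY, 5.45 to 24.9 in HZ vehicle and 3.93 to 8.80 CPM in WT vehicle livers. On the second principal component (9.8% of variance), 5 HZ libraries stood apart, WY animals 14, 15 and 21 and vehicle animals 30 and 38. WY animals carry numbers from 2 to 25 and vehicle animals numbers from 29 to 78, in separate count tables, and reads outside genes made up 6.35 to 7.82% under WY and 7.85 to 9.08% under vehicle. Treatment and whatever else these blocks of animals share cannot be told apart.

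Levels per kilobase of exon put Insig2, Hmgcs1 and Sc5d among the 4 highest members in every group. Under WY, Insig2 stood first with 211 ± 29.3 CPM per kb in HZ and 175 ± 37.4 in WT livers (SD, n = 7 each), and Hmgcs1 followed with 172 ± 63.7 and 101 ± 32.2. Under vehicle, Hmgcs1 had 181 ± 50.5 and Sc5d 156 ± 23.1 CPM per kb in HZ livers, while in WT livers Insig2, Sc5d and Hmgcs1 lay at 142 ± 47.3, 136 ± 44.1 and 129 ± 37.3, which is less apart than their SD. Soat1 was the lowest member everywhere, at 0.534 ± 0.222 in HZ WY, 0.350 ± 0.0886 in WT WY, 0.651 ± 0.163 in HZ vehicle and 0.584 ± 0.0451 CPM per kb in WT vehicle livers. Mylip and Idi1 were the next lowest, and Srebf2, at 7.94 to 10.3 CPM per kb in the group means, ranked below most of the enzymes.

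WY against vehicle in WT livers asks how PPARα agonist treatment bears on the pathway when no Sirt6 allele is lost. Of 28 members 10 fell and 0 rose (35.7%), against 26.7% of all genes tested that fell, 27.4% that rose and 54.1% called in either direction. The median log2 fold change of the 28 was -0.34, against -0.02 over all genes, and 24 of 28 values were negative. The members that fell came from every role: the sensor Insig1, the thiolase Acat2, the epoxidase Sqle, 4 of 8 enzymes after lanosterol, and Stard4, Soat1 and Soat2. A call means an adjusted p below 0.05 in edgeR's quasi-likelihood test over all 12607 genes, and log2 fold changes are given ± SE.

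The falls after lanosterol were led by Sc5d, which encodes lathosterol oxidase, the enzyme that makes the substrate of Dhcr7. Sc5d lay between 128 and 394 CPM (median 322) in WT WY livers, against 407 to 1044 CPM (median 596) in WT vehicle livers, and the groups did not overlap. Its log2 fold change was -1.13 ± 0.23 (adjusted p = 1.5e-04). Msmo1, the sterol methyl oxidase, lay between 107 and 319 CPM (median 210.4) in WT WY livers, against 267 to 540.1 CPM (median 429.6) in WT vehicle livers. Only the upper WY animals reached into the vehicle range, and the change was -0.86 ± 0.23 (adjusted p = 0.00268). Nsdhl, the sterol dehydrogenase that works next to Msmo1 in removing methyl groups, lay between 40.4 and 160.0 CPM (median 126) in WT WY livers, against 135 to 196 CPM (median 188) in WT vehicle livers (-0.60 ± 0.21, adjusted p = 0.0167). Cyp51, the lanosterol demethylase, lay between 102 and 321 CPM (median 222) in WT WY livers, against 241 to 409 CPM (median 342) in WT vehicle livers (-0.57 ± 0.21, adjusted p = 0.0243). In both genes the ranges met in part. The call of Cyp51 was lost without WT WY animal 10 (-0.45, adjusted p = 0.0530) and without WT vehicle animal 29 (-0.50, adjusted p = 0.0549).

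Earlier in the pathway fewer members passed. Sqle, the squalene epoxidase, lay between 66.7 and 149.9 CPM (median 121) in WT WY livers, against 124 to 218 CPM (median 154) in WT vehicle livers. Its change was -0.56 ± 0.20 (adjusted p = 0.0234), and the call was lost without WT WY animal 10 (-0.46, adjusted p = 0.0564), WT WY animal 24 (-0.50, adjusted p = 0.0519) or WT vehicle animal 32 (-0.48, adjusted p = 0.0560). Acat2, the cytosolic thiolase that joins acetyl groups, lay between 35.5 and 85.4 CPM (median 58.1) in WT WY livers, against 58.4 to 104 CPM (median 77.8) in WT vehicle livers. Its change of -0.37 ± 0.16 (adjusted p = 0.0450) sat at the threshold, and 10 of the 14 fits that left out 1 of these libraries lost the call, with adjusted p between 0.0104 and 0.119. Hmgcs1, the synthase of hydroxymethylglutaryl-CoA, lay between 285 and 643 CPM (median 438) in WT WY livers, against 359 to 873 CPM (median 548) in WT vehicle livers, with -0.35 ± 0.25 (adjusted p = 0.243). The other early enzymes Mvk, Pmvk, Mvd, Idi1 and Fdps had values of -0.50 to 0.14, Fdft1 and Lss had -0.32 and -0.48, and none passed.

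Among the sensors and handlers of cholesterol the falls were better separated. Insig1, whose transcript is a standard reporter of SREBP-2 activity, lay between 82.0 and 217 CPM (median 195) in WT WY livers, against 266 to 534 CPM (median 277) in WT vehicle livers. Every WY animal was below every vehicle animal, with 6 of 7 WY animals between 191 and 217 CPM, and the change was -0.79 ± 0.18 (adjusted p = 6.6e-04). Stard4 lay between 51.2 and 85.8 CPM (median 76.0) in WT WY livers, against 98.3 to 168 CPM (median 123) in WT vehicle livers, again without overlap (-0.81 ± 0.11, adjusted p = 4.6e-07). Soat2, the esterifying enzyme of hepatocytes, lay between 19.3 and 25.9 CPM (median 20.8) in WT WY livers, against 24.7 to 39.6 CPM (median 28.8) in WT vehicle livers. Only the extremes met, and it fell by 0.45 on the log2 scale (-0.45 ± 0.10, adjusted p = 2.7e-04). Soat1, the esterifying enzyme of most other cells, lay between 1.96 and 4.33 CPM (median 3.60) in WT WY livers, against 5.32 to 6.53 CPM (median 5.53) in WT vehicle livers, without overlap (-0.73 ± 0.21, adjusted p = 0.00358). The 8 Kupffer cell and macrophage markers summed to 236 to 342 CPM in WT WY and 324 to 448 CPM in WT vehicle livers, 1 of the 8 fell, and none was at 0. Their part in the fall of Soat1 was not tested.

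Groups without overlap were counted for 4 members, Insig1, Sc5d, Stard4 and Soat1, all lower under WY (12.1% of all genes were lower without overlap, 15.7% higher and 27.7% either). Two-sided exact permutation tests gave each of the 4 p = 0.000583, the smallest that 3432 splits of 7 against 7 allow. Srebf2 had -0.06 ± 0.08 (adjusted p = 0.596), at 49.9 to 67.9 CPM in WT WY and 53.2 to 65.9 CPM in WT vehicle livers, and Scap had 0.12 ± 0.08 (adjusted p = 0.207). Mylip, Npc1 and Npc2 had -0.24, -0.12 and -0.09 and did not pass.

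**Figure D1:**
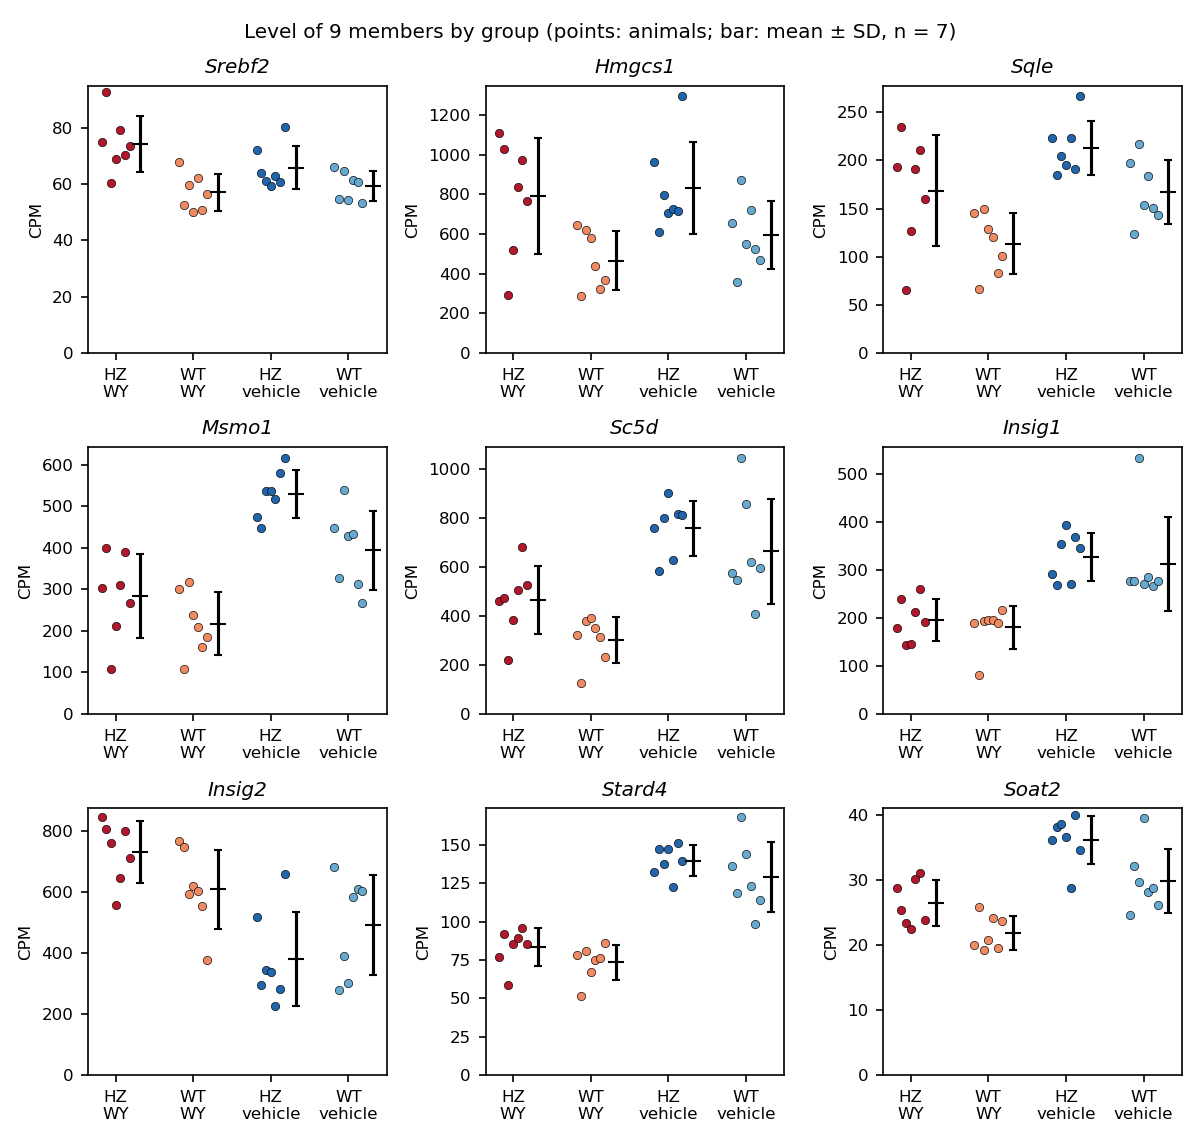
Level in CPM (vertical axes, starting at 0) of 9 members in every animal of the 4 groups, with a bar for mean ± SD (n = 7). Msmo1, Sc5d, Insig1, Stard4 and Soat2 were lower under WY in both genotypes, Insig2 was higher under WY in HZ, and Srebf2 was higher in HZ than WT under WY.

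The same treatment in HZ livers changed 8 of 28 members (28.6%), against 55.7% of all genes. Of these 6 fell (21.4%, against 26.4% of all genes that fell) and 2 rose (7.1%, against 29.3%). The members that fell were Insig1, Msmo1, Sc5d, Mylip, Stard4 and Soat2, and those that rose were Insig2 and Hsd17b7. The median log2 fold change of the 28 was -0.13, against 0.01 over all genes. Without the 5 HZ libraries that stood apart this median was 0.003, with 15 of 28 values positive. In that fit 6 members fell and 4 rose. The shares of all genes in that fit are not given here, so these counts say nothing particular to the members. With the clock score the median was -0.25, with 22 of 28 values negative. When single animals were left out the median ran from -0.20 (without HZ WY animal 2) to -0.07 (without HZ WY animal 14). Insig1, Msmo1, Sc5d, Stard4 and Soat2 fell in both genotypes, which is 83.3% of the 6 that fell in HZ and 50.0% of the 10 that fell in WT. Over all genes 2645 fell in both, which is 79.5% of those that fell in HZ and 78.7% of those that fell in WT. The 2 comparisons share no animals, though all 28 libraries share 1 estimate of spread.

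Insig2 rose most. It lay between 557 and 844 CPM (median 760.5) in HZ WY livers, against 225 to 659 CPM (median 339) in HZ vehicle livers, where animals 30 and 71 stood at 518 and 659 CPM and the other 5 between 225 and 345. The groups met only through animal 71, and the change was 0.94 ± 0.22 (adjusted p = 6.8e-04). A liver transcript of Insig2 is known to be lowered by insulin, and like Insig1 its product retains Scap. In WT livers Insig2 lay between 377 and 768 CPM (median 602) under WY, against 279 to 681 CPM (median 582) under vehicle, with 0.30 ± 0.22 (adjusted p = 0.246). With the clock score described below as a covariate, Insig2 passed in both genotypes, with 0.45 ± 0.13 in HZ (adjusted p = 0.00653) and 0.44 ± 0.12 in WT (adjusted p = 0.00282). Hsd17b7, the ketone reductase that works with Msmo1 and Nsdhl, was the other member to rise. It lay between 232 and 431 CPM (median 365) in HZ WY livers, against 182 to 390.3 CPM (median 211) in HZ vehicle livers, with 0.56 ± 0.17 (adjusted p = 0.00565). The highest vehicle value was animal 71, and the call was lost with the clock score (0.38, adjusted p = 0.0807).

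The falls in HZ were led by Msmo1, Stard4 and Insig1. Msmo1 lay between 107 and 399.9 CPM (median 303) in HZ WY livers, against 447 to 617 CPM (median 536) in HZ vehicle livers, without overlap (-0.90 ± 0.23, adjusted p = 0.00174). Stard4 lay between 58.7 and 95.9 CPM (median 85.2) in HZ WY livers, against 123 to 151 CPM (median 139) in HZ vehicle livers, without overlap (-0.75 ± 0.11, adjusted p = 1.4e-06). Insig1 lay between 143 and 260.4 CPM (median 191) in HZ WY livers, against 268 to 395 CPM (median 345) in HZ vehicle livers, without overlap (-0.74 ± 0.18, adjusted p = 0.00111). These were the 3 members lower without overlap in HZ, against 9.89% of all genes, and 0 were higher without overlap, against 12.6% (22.5% in either direction). Sc5d lay between 221 and 682 CPM (median 476) in HZ WY livers, against 584 to 901 CPM (median 800.5) in HZ vehicle livers (-0.70 ± 0.23, adjusted p = 0.00979). Its call was lost with the clock score (-0.60, adjusted p = 0.0659) and without the 5 HZ libraries (-0.56, adjusted p = 0.0923). Soat2 lay between 22.5 and 31.2 CPM (median 25.5) in HZ WY livers, against 28.8 to 40.1 CPM (median 36.6) in HZ vehicle livers, with -0.45 ± 0.10 (adjusted p = 2.2e-04). Mylip, a target of the sterol receptor LXR, lay between 4.85 and 11.9 CPM (median 7.30) in HZ WY livers, against 9.54 to 17.0 CPM (median 11.8) in HZ vehicle livers. Both highest values came from animals that stood apart, WY animal 21 and vehicle animal 38, and the change was -0.69 ± 0.18 (adjusted p = 0.00166).

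Members that fell in WT but were not called in HZ were Sqle, Cyp51, Nsdhl, Acat2 and Soat1. Sqle lay between 65.5 and 235 CPM in HZ WY livers, against 185 to 267 CPM in HZ vehicle livers (-0.34 ± 0.20, adjusted p = 0.169). Cyp51 had -0.42 ± 0.21 (adjusted p = 0.0981), Nsdhl -0.30 ± 0.21 (adjusted p = 0.221) and Acat2 -0.34 ± 0.15 (adjusted p = 0.0648). Soat1 lay between 2.499 and 9.11 CPM (median 4.24) in HZ WY livers, against 4.67 to 8.96 CPM (median 6.03) in HZ vehicle livers (-0.29 ± 0.20, adjusted p = 0.222). Its 3 highest WY values, 9.11, 6.68 and 5.81 CPM, were from animals 21, 14 and 15, whose macrophage markers summed to 654, 711 and 500 CPM, against 267 to 368 CPM in the other 4. Its 3 highest vehicle values, 8.96, 7.56 and 7.23 CPM, were from animals 38, 30 and 35, with marker sums of 591, 672 and 541 CPM, against 322 to 371 CPM in the other 4. Soat1 and these markers were thus high in the same HZ animals, and their part in its values was not tested.

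**Figure D2:**
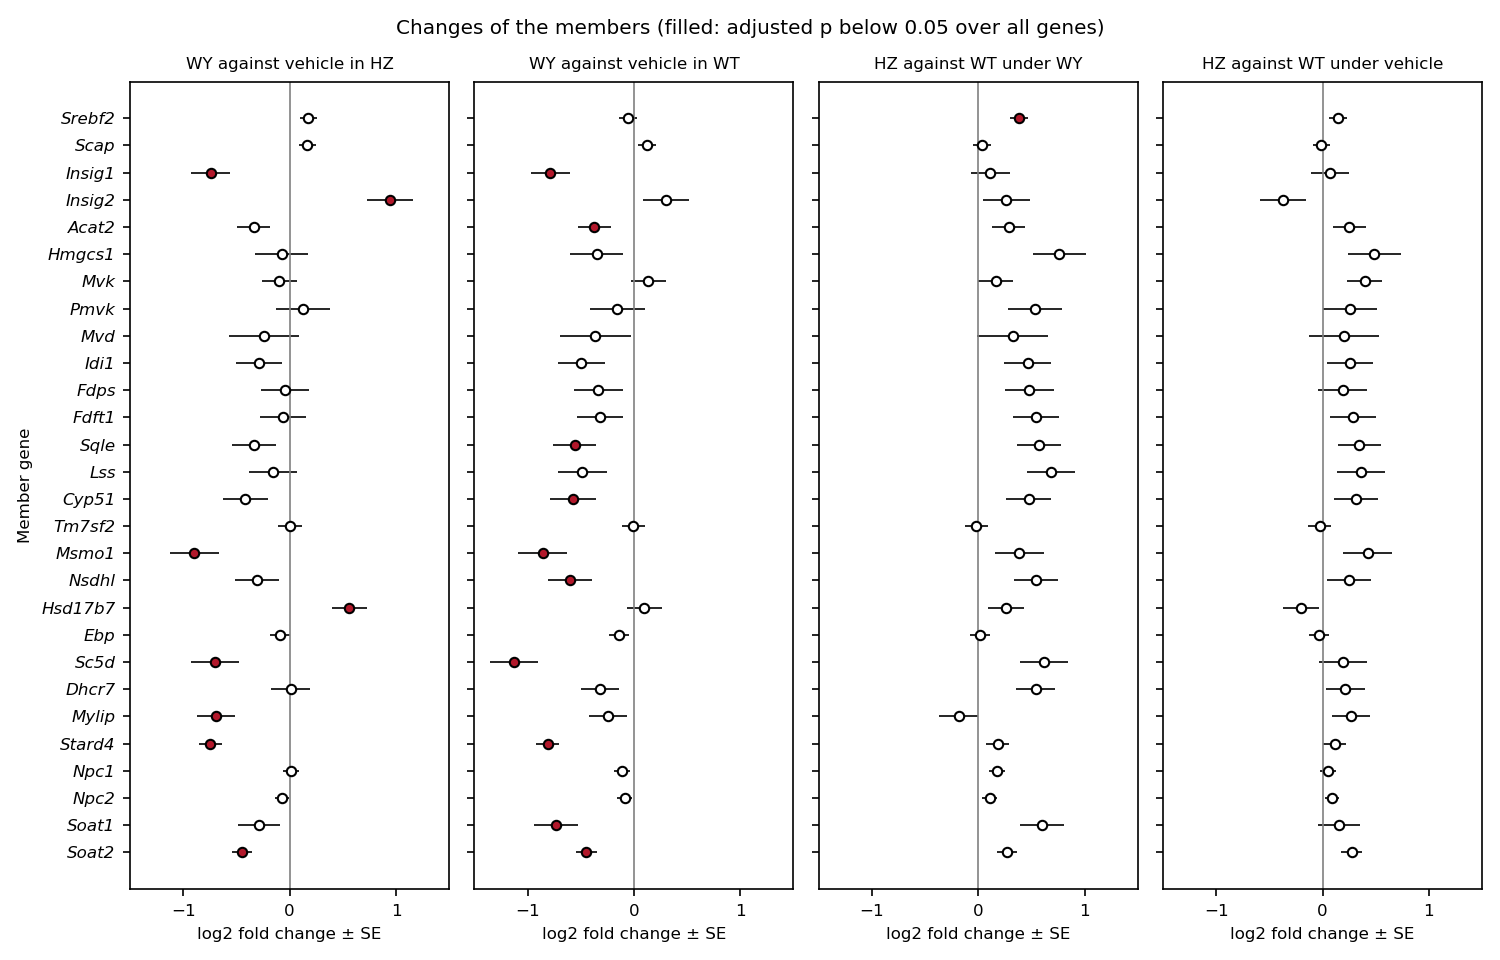
Log2 fold change ± SE (horizontal axes) of the 28 members for WY against vehicle in HZ and in WT and for HZ against WT under WY and under vehicle. Filled points are members with an adjusted p below 0.05 over all 12607 genes: 8, 10, 1 and 0 in these panels.

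Whether the response to WY differed between genotypes was tested by the interaction, the WY effect in HZ minus that in WT. It passed for 0 of 28 members and for 0 of 12607 genes in edgeR (percent called: 0), with 1 member and 1182 genes at an unadjusted p below 0.05. Over all genes DESeq2 called 3 and limma with voom called 1, and neither called a member. Insig2 was that member, with 0.64 ± 0.31 (adjusted p = 0.529 in edgeR), and with the clock score its value was 0.02. Srebf2 had 0.23 ± 0.12 and Hsd17b7 0.46 ± 0.24 (adjusted p = 0.544 and 0.543). For the 5 members that fell in WT and were not called in HZ the interaction was 0.03 to 0.44, so their calls in 1 genotype do not show a difference between the genotypes.

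HZ against WT under WY asks whether loss of a Sirt6 allele alters the pathway in treated livers. Srebf2 rose, and no other member passed in edgeR, so that 1 of 28 members (3.6%) was called, against 3.16% of all genes in either direction, 1.42% that rose and 1.74% that fell. No member was free of overlap between the genotypes, against 0.452% of all genes higher, 0.896% lower and 1.35% in either direction. Srebf2 lay between 60.4 and 92.6 CPM (median 73.5) in HZ WY livers, against 49.9 to 67.9 CPM (median 56.3) in WT WY livers. HZ animal 14 and WT animal 6 made the overlap, with 60.4 and 67.9 CPM, and 6 of 7 HZ animals were above every WT animal. The change was 0.38 ± 0.08 (adjusted p = 0.0176, two-sided exact permutation p = 0.00233), a ratio of 1.30. The call was lost without WT WY animal 19 (0.35, adjusted p = 0.0564) and with the clock score (0.26, adjusted p = 0.0511).

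Most enzymes of synthesis lay higher in HZ WY livers without passing. Of all 28 members 26 had a positive log2 fold change, and the median was 0.35, against 0.01 over all genes. In edgeR 15 (53.6%) had an unadjusted p below 0.05, against 24.1% of all genes. Most of these 15 were not below 0.05 in the two-sided exact permutation test. Besides Srebf2, exact permutation p was 0.046 for Hmgcs1, 0.038 for Lss, 0.046 for Sc5d and 0.019 for Soat2. For the others of the 15, exact permutation p ran from 0.0501 (Npc1) to 0.177 (Cyp51). The synthesis enzymes varied together from animal to animal, as described below. Counts of members, here and in the other comparisons, are therefore not independent pieces of evidence. Hmgcs1 lay between 294 and 1110 CPM (median 835) in HZ WY livers, against 285 to 643 CPM (median 438) in WT WY livers. Its lowest HZ animal was 14, 5 of 7 HZ animals were above every WT animal, and the value was 0.76 ± 0.25 (adjusted p = 0.0748). Lss, the cyclase that makes lanosterol, lay between 40.6 and 122 CPM (median 105) in HZ WY livers, against 27.4 to 82.99 CPM (median 63.4) in WT WY livers (0.69 ± 0.23, adjusted p = 0.0751). Dhcr7, the reductase of the last step, had 0.54 ± 0.18 (adjusted p = 0.0776), Sqle 0.57 ± 0.20 (adjusted p = 0.0955), Soat2 0.27 ± 0.10 (adjusted p = 0.0903) and Soat1 0.60 ± 0.21 (adjusted p = 0.0814). The macrophage markers, as given above, summed to 267 to 711 CPM in these HZ and 236 to 342 CPM in these WT livers, and their part in the value of Soat1 was not tested. Tm7sf2 and Mylip were the 2 members with negative values, -0.02 and -0.18, and with DESeq2 size factors there were 3.

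The count of called members depended on the fit and on single animals. DESeq2 called 6, Srebf2, Hmgcs1, Sqle, Lss, Dhcr7 and Soat1, against 1123 of all 12607 genes (398 higher). Voom called 2, Srebf2 and Soat2, against 934 of all genes (377 higher). Without HZ WY animal 14 edgeR called 8, all higher: Srebf2, Hmgcs1, Fdft1, Sqle, Lss, Cyp51, Nsdhl and Dhcr7. Without both animal 14 and WT WY animal 10, the lowest library of each genotype, it called 5, Srebf2, Sqle, Lss, Nsdhl and Dhcr7, and without the 5 HZ libraries 2, Srebf2 and Sqle. With a single animal left out, edgeR called 74 to 983 of all genes. All-gene counts for the other fits without animals are given in the last section. With a clock score as a covariate edgeR called 0 members, against 996 of all genes (479 higher). The score is the mean log2 CPM of 8 clock output and repressor genes minus that of Arntl, Npas2, Clock and Nfil3, and it ran from -0.29 to 2.43 in HZ WY livers and from 0.57 to 3.76 in WT WY livers. Its part in the genotype difference was otherwise not tested. Over all genes the split of calls moved with scaling, from 179 higher and 219 lower to 203 higher and 480 lower with DESeq2 size factors, while the members' median stayed at 0.34 and Srebf2 at 0.36.

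Under vehicle the same genotype comparison called 0 of 28 members in edgeR, against 2.07% of all genes (0.301% higher and 1.77% lower), with 2 members (7.1%) at an unadjusted p below 0.05, against 17.9% of all genes. No member was free of overlap, against 0.0397% of all genes higher, 0.23% lower and 0.27% in either direction. DESeq2 also called 0, against 521 of all genes, and voom called 1, Soat2, against 701 of all genes (179 higher). The median log2 fold change was 0.21, against 0.00 over all genes, and 23 of 28 values were positive, among them all 10 enzymes up to lanosterol. Soat2 lay between 28.8 and 40.1 CPM (median 36.6) in HZ vehicle livers, against 24.7 to 39.6 CPM (median 28.8) in WT vehicle livers (0.27 ± 0.10, adjusted p = 0.126). The WT maximum was animal 37, and without it Soat2 passed (0.35, adjusted p = 0.0241). Mvk, the mevalonate kinase, lay between 36.0 and 46.9 CPM (median 41.6) in HZ vehicle livers, against 25.9 to 37.2 CPM (median 33.1) in WT vehicle livers, with 0.40 ± 0.16 (adjusted p = 0.194). Its ranges met only at their ends, and the two-sided exact permutation p over these 14 animals was 0.00117. Hmgcs1 lay between 611 and 1295 CPM (median 726) in HZ vehicle livers, against 359 to 873 CPM (median 548) in WT vehicle livers (0.49 ± 0.25, adjusted p = 0.312). Insig2, at 225 to 659 CPM in HZ and 279 to 681 CPM in WT vehicle livers, had -0.37 ± 0.22 (adjusted p = 0.380), and Srebf2 had 0.15 ± 0.08 (adjusted p = 0.358). Both genotype comparisons and both WY comparisons draw on the same 4 groups, so their values are not independent of one another.

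The synthesis enzymes varied together from animal to animal. With group means removed, the log2 CPM of each member was correlated with the mean of the other 27 over the 28 animals. The 18 synthesis enzymes had Pearson r between 0.70 (Hsd17b7) and 0.97 (Dhcr7), and 15 of them were above 0.8. Insig1 had 0.73, Srebf2 0.60, Scap 0.37 and Insig2 0.12. Among the handlers of cholesterol Stard4 had 0.73, while Npc2, Soat2, Npc1, Mylip and Soat1 had 0.11, 0.05, -0.24, -0.34 and -0.41. These values describe the 28 libraries, in which members share depth and any common disturbance of a library. Synthesis enzymes, 18 of the 28 members, make up most of each mean, so the lower r of other members may follow in part from its make-up. WT WY animal 10 and HZ WY animal 14 had low synthesis means (5.71 and 6.07 log2 CPM) and may weigh on r. The r without them was not computed.

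**Figure D3:**
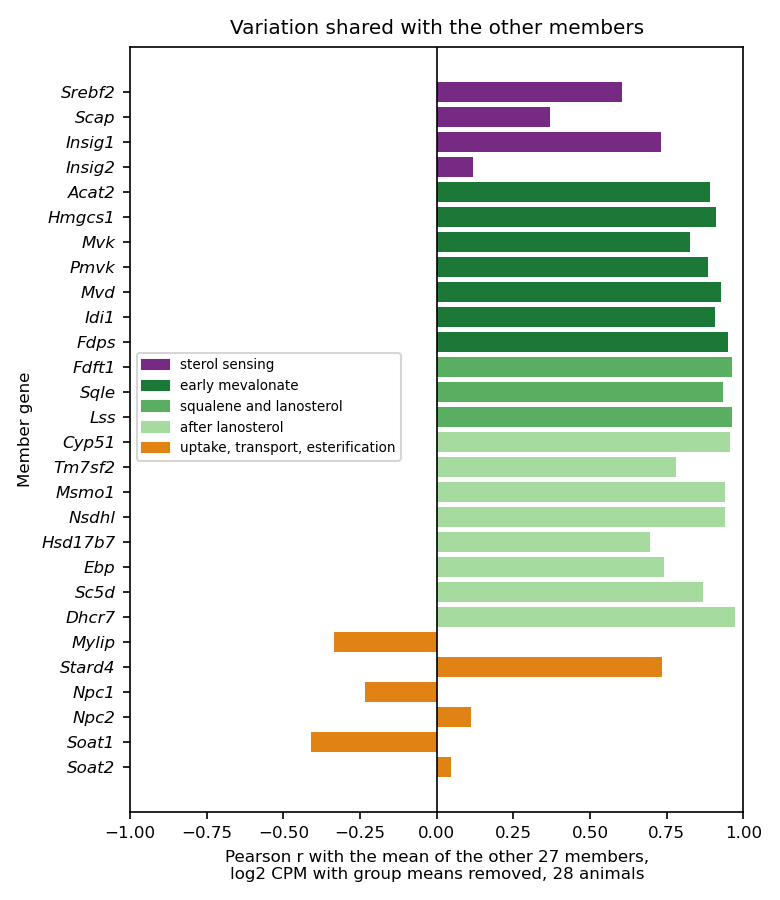
Pearson r of each member with the mean of the other 27 members (horizontal axis, from -1 to 1) over 28 animals after group means were removed, coloured by role. The enzymes of synthesis stood at 0.70 to 0.97, and 3 handlers of cholesterol were below 0.

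Under WY single animals held many of the lowest values. The mean log2 CPM of the 28 members ran from 6.02 to 6.98 in HZ WY, 5.75 to 6.69 in WT WY, 6.73 to 7.15 in HZ vehicle and 6.53 to 7.02 in WT vehicle livers. WT WY animal 10 was the lowest of its group in 21 of 28 members and HZ WY animal 14 in 20 of 28. WT vehicle animal 32 was the highest of its group in 14 members and HZ vehicle animal 71 in 13, while HZ vehicle animal 38 was the lowest in 14. The median SD of the members' log2 CPM was 0.43 in HZ WY, 0.44 in WT WY, 0.22 in HZ vehicle and 0.28 in WT vehicle livers, against 0.18, 0.16, 0.20 and 0.18 over all genes. Mvd, the decarboxylase that makes isopentenyl diphosphate, was the most variable member in both WY groups and in WT vehicle livers, with SD of 0.84 in HZ WY, 0.83 in WT WY and 0.61 in WT vehicle. Npc2 was the least variable in the same groups, with 0.13, 0.10 and 0.10, while in HZ vehicle livers Insig2 was the most variable at 0.53 and Idi1 the least at 0.10. Hmgcs1 in animal 14 was at 294 CPM and in animal 10 at 285 CPM, while Insig2 in the same livers was at 760.5 and 746 CPM, above the median of its group in WT and at it in HZ.

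**Figure D4:**
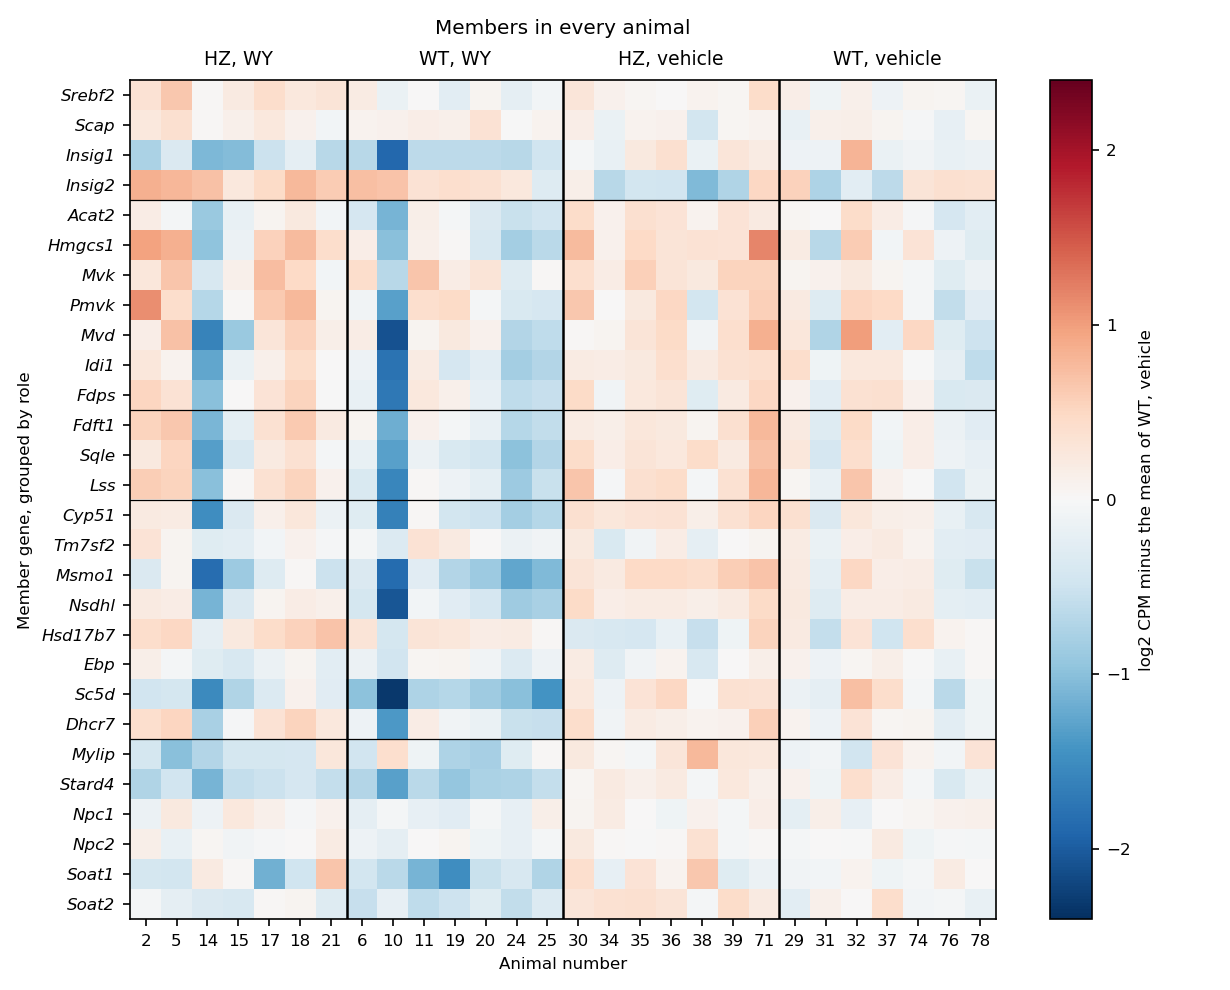
Log2 CPM of the 28 members minus the mean of WT vehicle (colour) in every animal, with columns by group and rows by role. The synthesis enzymes were low together in HZ WY animal 14 and WT WY animal 10, and Insig1, Msmo1, Sc5d and Stard4 were low in most WY animals of both genotypes.

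Outside the set, the 5 genes of 12607 whose log2 CPM followed the members' mean most closely, with group means removed over 28 libraries, were Rdh11, Mmab, Acss2, Slc25a1 and the gene listed as 0610007P14Rik. Rdh11, a retinol dehydrogenase, had Pearson r = 0.95. Mmab, an enzyme of cobalamin metabolism, had 0.88, and Acss2, which makes acetyl-CoA from acetate in the cytosol, had 0.86. Slc25a1, the mitochondrial citrate carrier, and 0610007P14Rik, which RefSeq lists as a synonym of Erg28, had 0.83 each.

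Of 38 genes next to the pathway, in 3 lists, WY changed 23 in HZ (60.5%) and 20 in WT (52.6%), shares near the 55.7% and 54.1% of all genes. The shares of all genes behind the counts by direction below are 26.4% lower and 29.3% higher in HZ, and 26.7% lower and 27.4% higher in WT. Between genotypes 1 of the 38 passed under vehicle (2.6%, against 2.07% of all genes) and 0 under WY (against 3.16%). Of 10 genes of SREBP processing and the turnover of its regulators, WY lowered 5 and raised 3 in HZ, and lowered 5 and raised 2 in WT. Vcp and Ufd1l, which extract ubiquitinated membrane proteins, rose in HZ (0.35 ± 0.06 and 0.37 ± 0.06) and in WT (0.36 ± 0.06 and 0.33 ± 0.06). Rnf139, a ubiquitin ligase of the endoplasmic reticulum, fell in HZ (-0.39 ± 0.06) and in WT (-0.30 ± 0.07), and Erlin2, a scaffold for such turnover, fell in HZ (-0.25 ± 0.05) and in WT (-0.29 ± 0.05). Between genotypes 0 of the 10 passed under either treatment in edgeR.

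Of 10 genes on branches of the mevalonate pathway, WY raised 4 and lowered 2 in HZ, and raised 3 and lowered 2 in WT. Pdss1, which builds the side chain of coenzyme Q, lay between 5.79 and 7.06 CPM in HZ WY livers, against 1.80 to 4.11 CPM in HZ vehicle livers (0.99 ± 0.13), and its change in WT was 0.65 ± 0.13. Aacs, which turns acetoacetate back into acetoacetyl-CoA in the cytosol, rose in HZ (1.07 ± 0.33) and in WT (1.25 ± 0.33). Of 18 genes of cholesterol efflux, esters and sterol transport, WY raised 5 and lowered 4 in HZ, and raised 4 and lowered 4 in WT. Nceh1, a cholesteryl ester hydrolase, lay between 116 and 164 CPM in HZ WY livers, against 29.8 to 64.4 CPM in HZ vehicle livers (1.74 ± 0.20). It lay between 150.4 and 172 CPM in WT WY livers, against 40.3 to 101 CPM in WT vehicle livers (1.17 ± 0.19). Nr1h3, which encodes LXRα, rose in HZ (0.33 ± 0.06) and in WT (0.28 ± 0.06). Nr1h2 also rose in HZ (0.26 ± 0.06) and in WT (0.23 ± 0.06). Osbp, an oxysterol-binding protein, fell in HZ (-0.48 ± 0.06) and in WT (-0.37 ± 0.06). Between genotypes 1 of these 28 genes passed, Nceh1, which was lower in HZ vehicle livers (29.8 to 64.4 CPM) than in WT vehicle livers (40.3 to 101 CPM), with -0.72 ± 0.19 (adjusted p = 0.0484). Under vehicle 2.07% of all genes were called and 1.77% were called lower. With only the vehicle groups compared, or without the 5 HZ libraries that stood apart, no gene was called, so this call was lost.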

How the data were processed

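RNA-seq counts of whole liver from 28 mice were used, 7 per group. Per the labels' protocols, frozen livers gave RNA by Trizol, and the NEBNext Ultra kit was used for the libraries. Per the submitters' processing notes, STAR 2.5.0a, HTSeq 0.6.1p1 and DESeq2 1.18.1 were used with mm10. The sources used here state neither annotation nor strand setting. Overlapping and antisense genes may therefore share reads. The deposited values are whole-number counts per gene symbol, in a vehicle and a WY table. HTSeq summary rows (35.8 to 42.6% of a library's total not unique, 6.35 to 9.08% outside genes) and 25 and 27 rows whose names a spreadsheet had turned into dates were left out.

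Groups came from the labels. Genes were kept with filterByExpr by group, scaled by TMM and tested in edgeR 4.0.16 (R 4.3.3) by quasi-likelihood, robust, with the 28 libraries in 1 fit and 24 residual degrees of freedom, with Benjamini-Hochberg adjustment over 12607 genes in each contrast and a threshold of 0.05. CPM uses TMM-scaled library sizes, and log2 CPM a prior count of 2. Exact permutation tests compared mean log2 CPM over 3432 splits. Exon lengths and positions are from a GRCm38 annotation, promoters from RefSeq. The code was tested on simulated counts. No 2 libraries of a group agreed within sampling noise. The labels name animals by number and do not say whether they were littermates.

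The members and lists were chosen with earlier results of these data known. Values are given in full for members called in any contrast, the 3 of smallest p per contrast and 7 leads of their roles (Srebf2, Insig1, Insig2, Hmgcs1, Sqle, Mylip, Soat2). From the lists of other genes at most 4 called genes of smallest p per list and contrast were eligible. Alternatives were DESeq2 size factors, DESeq2 1.42.0, limma 3.58.1 with voom quality weights, no filter, the clock score, only the groups compared, a term for vehicle animals 71 to 78, and each animal left out. Leaving out the 5 HZ libraries, or WT WY animal 10 with HZ WY animal 14, was added after seeing the data. Marker lists of neutrophils, endothelium, bile duct, stellate cells, adipocytes and T cells were also summed. No more than 2 genes of any of these lists passed in a contrast, and the adipocyte and T cell lists had no gene above the filter. For WY against vehicle in HZ, 2 of the 3 bile duct markers tested rose, while of 5 stellate markers 1 rose and 1 fell.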

Additional observations from a re-analysis of the deposited data

Results flagged for a closer look

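In 15 of 112 pairs of a member and a group, 1 animal lay far from the other 6 (a gap to its neighbour that passed Dixon's critical value for 7 samples). By this measure chance flags about 1 in 20 groups, and the members share the same animals.

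HZ WY animal 14 was far below its group in 7 members. It had 6.04 CPM of Idi1 (next lowest animal 13.0), 92.2 of Fdps (184), 40.6 of Lss (82.5), 111 of Cyp51 (246), 76.7 of Nsdhl (132), 90.6 of Dhcr7 (152) and 41.7 CPM of Acat2 (68.3).

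WT WY animal 10 was far below its group in 4 members, with 82.0 CPM of Insig1 (next lowest animal 191), 5.56 of Mvd (14.6), 40.4 of Nsdhl (92.9) and 199 CPM of Hsd17b7 (274).

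The other 4 animals lay above their groups. HZ vehicle animal 71 had 390.3 CPM of Hsd17b7 (next highest 250.3) and HZ vehicle animal 38 had 17.0 CPM of Mylip (12.1). WT vehicle animal 32 had 534 CPM of Insig1 (285) and WT vehicle animal 37 had 74.8 CPM of Npc2 (64.6).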

How the results depend on the processing

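No paired analysis was possible because no animal number occurs in more than 1 group. Of the alternative values for the main counts and medians 319 stayed within 1.5 times the main count or 1 SD and 47 did not, and no called value changed sign. For the medians this SD was 0.26, the pooled SD between animals of the members' mean log2 CPM. It is larger in size than the main medians for WY in HZ (-0.13), for genotype under vehicle (0.21) and for the interaction (0.18). Staying within it therefore says little about these medians. The genotype counts moved most. Under vehicle, 261 genes over all became 521 with DESeq2, 701 with voom, 146 with no filter, 0 with only the vehicle groups, 69 with a term for animals 71 to 78, 0 without the 5 HZ libraries and 43 to 649 when an animal was left out. Members called there were 1 with voom and 0 to 1 when an animal was left out. Under WY, 398 genes became 683 with DESeq2 size factors, 1123 with DESeq2, 934 with voom, 153 with no filter, 996 with the clock score, 49 without the 5 HZ libraries, 124 without WT WY animal 10 and HZ WY animal 14, and 74 to 983 when an animal was left out. Members called there were 6 with DESeq2, 2 with voom, 0 with the clock score, 2 without the 5 HZ libraries, 5 without animals 10 and 14, and 0 (without WT WY animal 19) to 8 (without HZ WY animal 14) when an animal was left out. The interaction gave 3 genes with DESeq2, 1 with voom and 0 to 1 when an animal was left out. Leaving out an animal gave 7 (without WT WY animal 10) to 12 called members for WY in WT, against 6491 to 6757 of all 12607 genes. For WY in HZ it gave 8 to 10 called members, against 6660 to 7126 of all genes. The causes of these changes were not tested. Soat1 and Mylip had the fewest counts of the members described in full, 30 to 359 per library, and whether depth limits their tests was not tested.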
